A study of Mus musculus with 8 samples.

Results

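The 36 genes described here encode proteins of the lysosome, its acid pump and the factors that control it. They were measured in sorted regulatory T cells (Tregs) of bone marrow chimeras, among 19937 genes on the array. Npc1 and Cln3 head the set because their transcripts were lower in the cells of the IIKO chimeras, so their values are described without a test. The other 34 genes were listed for their lysosomal roles, with earlier results of these data known. Their values are set beside those of Npc1 and Cln3. Each of the 36 had exactly 1 probe set with a single gene symbol.

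All recipients were CD3ε-/- mice, which form no T cells of their own, and all were lethally irradiated. WT chimeras received marrow of wild-type mice and IIKO chimeras received marrow of IIKO mice, whose altered gene or genes the labels do not spell out. CD4+ TCRβ+ CD25+ cells were isolated with beads and sorting from peripheral lymph nodes and spleen at day 28 after reconstitution. The labels give the strain C57BL/6 and an age of 6 to 8 weeks, and describe the IIKO group as Tregs deprived of peripheral contact between their T cell receptor and MHC class II. Recipient cells that survive irradiation, such as stromal cells, keep the genotype of the recipient. Each group had 4 samples called biological replicates, 1 array each, from 100 ng of RNA. How many mice a sample pools is not stated, so the error values below measure the spread between samples. In such bulk samples fewer cells of a type and less RNA per cell cannot be told apart.

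The values are log2 expression after RMA, and array medians over all probe sets lay between 6.96 and 7.03. All 7 measured genes of the Treg check list (Foxp3, Il2ra, Ctla4, Ikzf2, Cd4, Cd3g and Cd3d) lay above the upper quartile of gene levels. Of these 7, 0 passed the test between groups. For 2 of them, Il2ra and Ctla4, IIKO arrays were higher by 0.17 and 0.12, with p under 0.05 before adjustment. A rise of this kind was found for 5.27% of all genes. It was found for 8.95% of the 9969 genes with a mean at or above the median, which include all 7. The groups were apart, with IIKO higher, for Il2ra, Ctla4 and Ikzf2 (2.83% of all genes). Of the markers of other cell types, 0 passed the test between groups (limma). They numbered 9 for B cells, 22 for myeloid and dendritic cells, 8 for NK and CD8 T cells and 2 for erythroid cells. At an unadjusted p under 0.05 there were 1, 2, 2 and 0 of them. Ebf1, Siglech, S100a8 and Cd8a were lower in IIKO arrays (12.0% of all genes) and Klrd1 was higher (5.27%). The mean level of the myeloid list ran from 6.34 to 6.63 in WT and from 6.33 to 6.73 in IIKO arrays, and that of the B cell list from 5.95 to 6.14 and from 5.94 to 6.05. The NK and CD8 list ran from 6.79 to 6.97 and from 6.77 to 6.95, and the erythroid pair from 6.55 to 6.74 and from 6.33 to 6.73. On a log2 scale after RMA no marker can be listed at 0, but 4 of the 9, 6 of the 22, 3 of the 8 and 1 of the 2 had a mean under the lower quartile of all genes. The brightest were Cd79b and Pax5, Tyrobp and Cd68, Gzmb and Eomes, and Alas2 and Klf1. Tyrobp differed by 0.56 (limma adjusted p = 0.385), with groups that overlapped and a value of 9.70 in IIKO array 3. Differences of the 22 myeloid markers were above zero for 15 and below for 7. Cd68 also belongs to the other lysosome genes described below, so the myeloid list and that list share it. The highest myeloid mean was that of IIKO array 3.

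Lysosomes are acidic organelles that degrade proteins, lipids and sugars delivered by endocytosis and autophagy. A proton pump, the V-ATPase, keeps their lumen acidic, and many hydrolases reach them through the mannose 6-phosphate tag. NPC1 and NPC2 together export the cholesterol freed there, and loss of either causes Niemann-Pick disease type C. CLN3 is a lysosomal membrane protein whose loss causes juvenile neuronal ceroid lipofuscinosis. The factors TFEB and TFE3 switch on many lysosomal genes through a short element called CLEAR, an E-box that reads CACGTG at its core.

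The E-box is shown first because it is what many promoters of the set share. RefSeq promoter sequences (GRCm38.p6, 250 bases before a start) were found for 30 of the 36 genes. The core CACGTG, which reads the same on both strands, stood in 11 of these 30 (36.7%), against 6.86% of 27025 genes with such a sequence and 8.11% of those on the array. The longer GTCACGTG, which contains the core and was sought on both strands, stood in 8 of 30 (26.7%): Cln3, Ctsa, Ctsd, Gla, Glb1, Lamp1, Lgmn and Mcoln1. It stood in 2.11% of all genes with a sequence and in 2.88% of those on the array. A match describes letters and not a bound site. Stretches of 6 of these promoters follow, 5′ to 3′ on the gene's strand, with the core and any flanking GT or AC in capitals. The Cln3 matches lie before an inner start of the gene, so a shorter stretch is given, while the others lie before the outermost start.
Cln3, chr7:126583340-126583369, minus strand: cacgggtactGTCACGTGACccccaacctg
Ctsd, chr7:142387898-142387945, minus strand: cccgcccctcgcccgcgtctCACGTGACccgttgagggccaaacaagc
Lamp1, chr8:13159080-13159160, plus strand: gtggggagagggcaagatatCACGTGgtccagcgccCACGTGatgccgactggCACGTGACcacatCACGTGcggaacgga
Mcoln1, chr8:3500426-3500501, plus strand: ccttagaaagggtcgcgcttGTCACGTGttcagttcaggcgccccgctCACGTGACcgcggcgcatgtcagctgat
Gla, chrX:134601174-134601252, minus strand: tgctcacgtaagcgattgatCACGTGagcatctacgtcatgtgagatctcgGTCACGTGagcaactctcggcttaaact
Glb1, chr9:114401008-114401055, plus strand: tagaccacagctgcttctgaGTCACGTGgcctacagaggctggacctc
Lamp1 held 4 cores within its stretch, Mcoln1 and Gla 2 each, and the other stretches 1. Cln3 and Ctsd each have another core farther upstream, outside the stretch shown.

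Npc1 read 9.55, 9.55, 9.50 and 9.39 in WT arrays 1 to 4 and 8.72, 8.96, 8.65 and 8.73 in IIKO arrays 1 to 4. Every IIKO array lay below every WT array, and IIKO array 2 was the highest of its group. The difference, IIKO minus WT, was -0.73 (95% confidence interval -0.90 to -0.57), a level 1.66-fold lower. Cln3 read 9.48, 9.59, 9.47 and 9.42 in WT arrays and 8.70, 8.44, 8.38 and 8.42 in IIKO arrays. Its groups were also apart, with IIKO array 1 the highest of its group, and its difference was -1.001 (-1.17 to -0.83), a level 2.001-fold lower. Leaving out any single array kept the difference of Npc1 between -0.80 and -0.69 and that of Cln3 between -1.07 and -0.97. Both genes were chosen for this difference, so the intervals and ranges only describe it and take no account of that choice.

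The rest of the lysosome set did not move past the test in either direction. Of the 34 other genes, 0 passed limma's test after Benjamini-Hochberg adjustment over all genes (adjusted p under 0.05), where 0.286% of all 19937 genes did (57, of which 32 or 0.161% were higher and 25 or 0.125% lower, or 58 higher and 23 lower with arrays centred on their medians). The lowest adjusted p of the 34 was 0.189, for Ctsl. Before adjustment (p under 0.05), 3 of the 34 were higher (8.82%, against 5.27% of all genes) and 0 lower (against 12.0%). Most of the 34 (30) belong to the brighter 9969 genes, those with a mean at or above the median. Over these brighter genes the shares were 8.95% higher and 7.42% lower. The groups were apart, all IIKO arrays higher, for 1 of the 34, against 2.83% of all genes, and all lower for 0, against 7.69%. Among the brighter 9969 genes they were apart for 493 with IIKO higher and for 448 with IIKO lower. Of the 34, 31 differed by less than 0.2 in log2.

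Each interval applies to a single gene on this scale, so the 34 do not jointly bound what the arrays could have missed. All 34 of the 95% confidence intervals, each unadjusted, stayed above -0.5, and the lowest bound was -0.46, for Glb1. Npc1 and Cln3 were chosen for their differences in these arrays, so their intervals are no mark for judging the other genes. On the upper side 30 of the 34 intervals lay within 0.5 of zero, and the exceptions were Ctsl, Cd63, Asah1 and Lgmn. The median difference of the 34 was 0.03, against -0.04 over all genes and 0.01 over the brighter 9969 genes, to which 30 of the 34 belong. Differences above zero were found for 26 of the 34 and for 37.1% of all genes (53.6% of the brighter ones). That count depended on the scaling, and so did the share over all genes. When the arrays were quantile normalized again it was 18 of 34, against 47.3% of all genes. With arrays centred on their medians, which adds the same 0.05 to the difference of every gene, it was 30 of 34, against 54.5%.

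**Figure D1:**
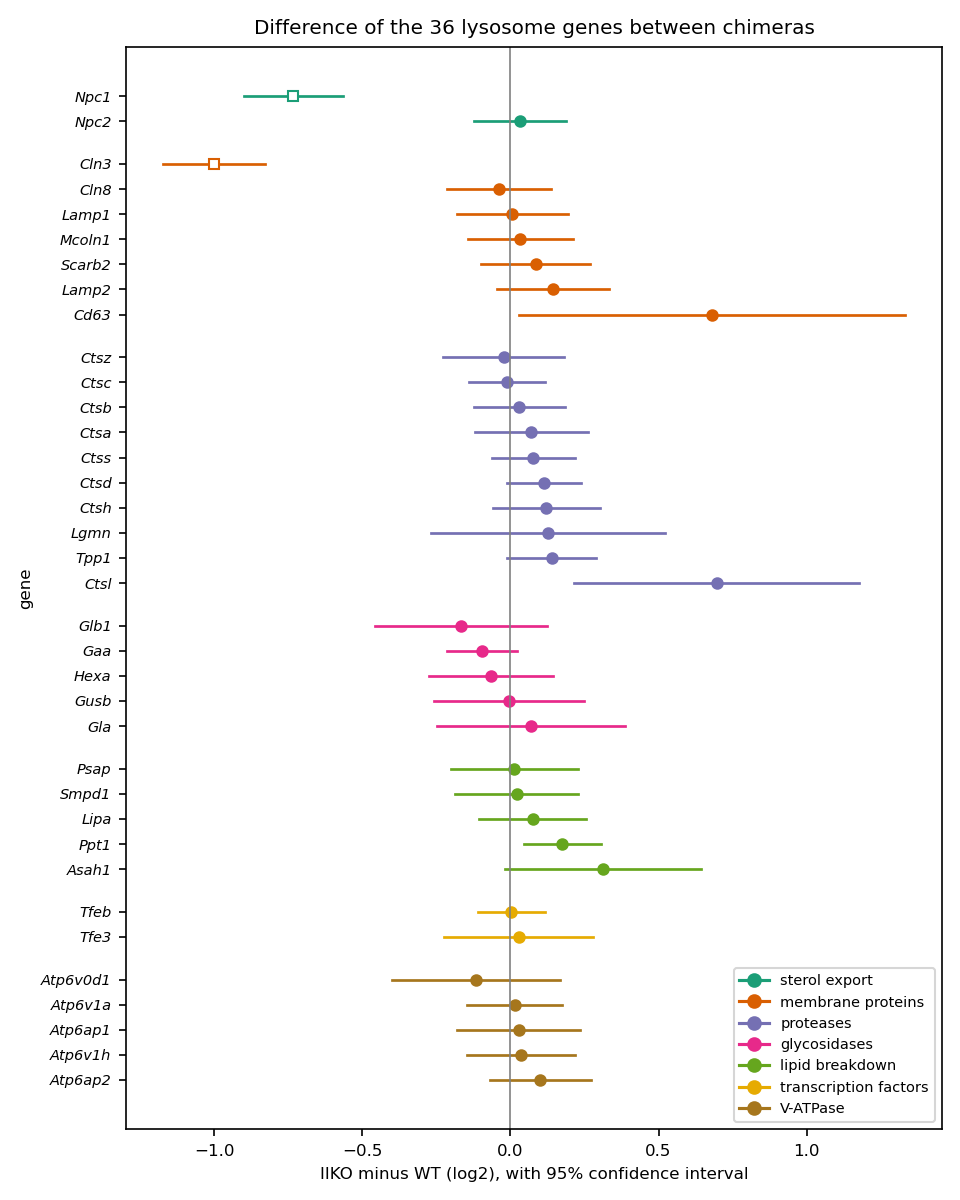
Difference between IIKO and WT chimeras (log2, horizontal axis) of the 36 lysosome genes, grouped and coloured by role, as points with 95% confidence intervals. Npc1 and Cln3 (open squares), at -0.73 and -1.001, were chosen for these differences and are no mark for the other genes. The intervals of the other 34 genes, each unadjusted, all stay above -0.5.

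**Figure D2:**
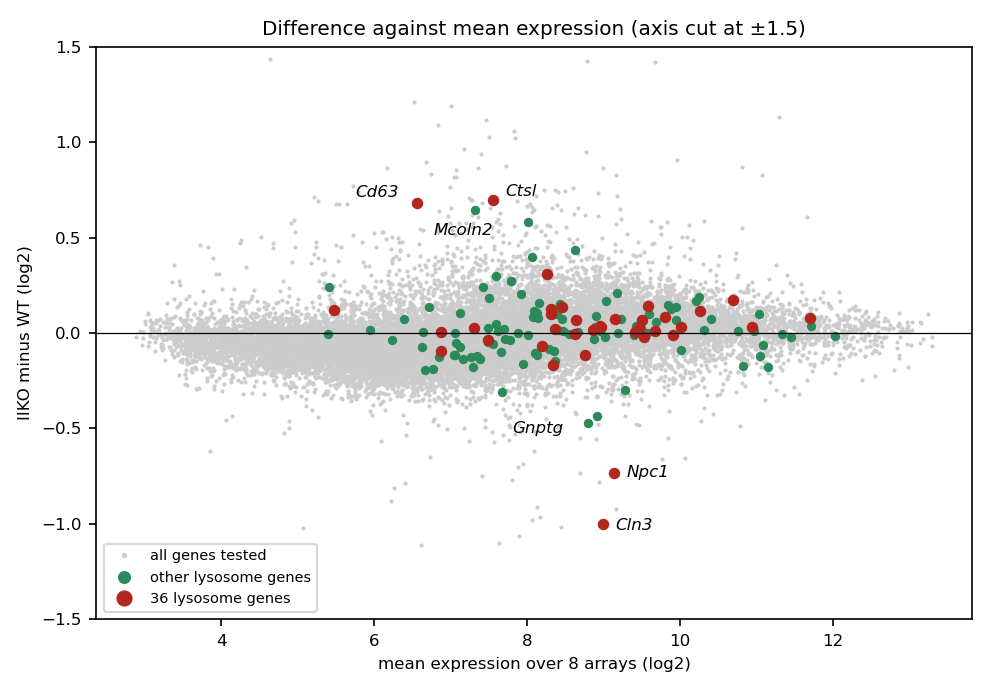
Difference (log2, vertical axis) against mean expression over the 8 arrays (log2, horizontal axis) for all 19937 genes (grey), the 104 other lysosome genes (green) and the 36 lysosome genes (red). Most red points lie within 0.2 of zero. Npc1 and Cln3, chosen for their low values in IIKO arrays, are the lowest red points.

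Sterol export rests on 2 proteins, and their transcripts were read separately. Npc2, the soluble protein that hands cholesterol to NPC1 in the lumen, lay between 10.84 and 11.00 in WT and between 10.83 and 11.07 in IIKO arrays. Its difference was 0.03 (-0.12 to 0.19), so the arrays overlapped throughout for the partner of Npc1.

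Among the membrane proteins other than Cln3, 0 of 6 passed. Lamp1 and Lamp2 encode the abundant glycoproteins that line the lysosomal membrane. Lamp1 lay between 9.28 and 9.62 in WT and between 9.29 and 9.53 in IIKO arrays, and Lamp2 between 9.28 and 9.64 and between 9.59 and 9.74. Scarb2, which encodes LIMP-2, the receptor that carries glucocerebrosidase to the lysosome, lay between 9.69 and 9.85 and between 9.62 and 10.002. Mcoln1, the calcium channel of the lysosome, and Cln8, an endoplasmic reticulum protein that helps enzymes leave for the lysosome, differed by 0.03 and -0.04. Differences as small as these depend on the scale: that of Cln8 changes sign with the 0.05 that centring adds to every gene, and those of Lamp1 and Mcoln1 after a second quantile normalization.

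Cd63, a tetraspanin of late endosomes and secreted granules, had a higher mean in IIKO arrays without passing the test. It read 6.43, 5.63, 6.65 and 6.20 in WT arrays 1 to 4 and 6.52, 7.79, 6.86 and 6.47 in IIKO arrays 1 to 4. WT array 2 was far below and IIKO array 2 far above the rest, and the groups overlapped. The difference was 0.68 ± 0.29 (SE; limma adjusted p = 0.271), and it was 0.39 without IIKO array 2 (adjusted p = 0.426). The myeloid marker mean was 6.42 in both of these arrays and 6.73 in IIKO array 3, where Cd63 read 6.86. The part of myeloid cells in the result was not tested.

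Of the 10 proteases and peptidases, 0 passed and 8 had differences above zero. The share above zero was 37.1% of all genes and 53.6% of the brighter 9969. Ctsl, which encodes cathepsin L, a cysteine protease, had the largest difference of the 34 genes. It read 7.29, 6.94, 7.23 and 7.35 in WT arrays and 8.33, 8.35, 7.60 and 7.32 in IIKO arrays. IIKO arrays 1 and 2 stood about 1 log2 unit above the WT arrays, IIKO array 3 was slightly above them, and IIKO array 4 lay within their range. The difference was 0.70 ± 0.22 (SE; limma adjusted p = 0.189), from 0.55 without IIKO array 2 to 0.89 without IIKO array 4 (adjusted p = 0.0895). The myeloid marker mean was 6.45 and 6.42 in IIKO arrays 1 and 2, below the 6.73 of IIKO array 3 and the 6.63 of WT array 4, and its part in the result was not tested.

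The other cathepsins stayed close between groups. Ctss and Ctsb encode cysteine cathepsins, and in antigen-presenting cells cathepsin S trims the invariant chain of MHC class II. Ctss lay between 11.56 and 11.70 in WT and between 11.60 and 11.81 in IIKO arrays, and Ctsb between 9.81 and 10.10 and between 10.01 and 10.07. Ctsd, the aspartic protease, differed by 0.11 (-0.01 to 0.24) and Ctsc, which activates granzymes, by -0.01 (-0.14 to 0.12). Ctsz, a carboxypeptidase, and Ctsh, an aminopeptidase, differed by -0.02 and 0.12. Ctsh, at 5.22 to 5.60 in WT arrays, had a mean under the lower quartile of all genes (6.04). The differences of Ctsc and Ctsz change sign with the 0.05 that centring adds to every gene, and that of Ctsb after a second quantile normalization.

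Ctsa, Tpp1 and Lgmn complete the proteases. Ctsa, the serine carboxypeptidase that also protects beta-galactosidase and neuraminidase, differed by 0.07 (-0.12 to 0.26). Tpp1, the tripeptidyl peptidase lost in another ceroid lipofuscinosis, lay between 8.33 and 8.43 in WT and between 8.40 and 8.69 in IIKO arrays. Lgmn, the asparaginyl endopeptidase, was the more variable, at 8.73 and 8.71 in IIKO arrays 2 and 3 but 7.94 in IIKO array 4, against 8.04 to 8.42 in WT arrays. Its groups overlapped fully.

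Of the 5 glycosidases, 0 passed and 4 had differences below zero, as did 12546 of all 19937 genes and 4621 of the brighter 9969. Glb1, beta-galactosidase, lay between 8.22 and 8.63 in WT and between 7.95 and 8.57 in IIKO arrays, and its difference was -0.17 (-0.46 to 0.12). Gaa, the acid alpha-glucosidase that degrades glycogen, differed by -0.10 (-0.21 to 0.02) and Hexa, the alpha chain of beta-hexosaminidase, by -0.07 (-0.27 to 0.14). Gusb, beta-glucuronidase, differed by -0.01, which changes sign with the 0.05 that centring adds to every gene and also with array weights. Gla, alpha-galactosidase, differed by 0.07 (-0.25 to 0.39), with IIKO arrays from 8.25 to 8.94 around the WT range of 8.47 to 8.75.

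Of the 5 genes of lipid breakdown, all had differences above zero and 0 passed. Differences above zero were found for 37.1% of all genes and for 53.6% of the brighter 9969. Ppt1, the thioesterase that removes fatty acids from proteins and is lost in infantile ceroid lipofuscinosis, was the only one of the 34 whose groups were apart. It read 10.63, 10.52, 10.70 and 10.60 in WT arrays and 10.79, 10.86, 10.77 and 10.72 in IIKO arrays. The gap between the highest WT and the lowest IIKO array was small beside the range of either group. The difference was 0.17 ± 0.06 (SE; limma adjusted p = 0.203), a level 1.13-fold higher.

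Asah1, acid ceramidase, had the widest spread of the lipid genes. Its IIKO arrays read 8.87, 8.41, 8.36 and 8.05 against 7.89 to 8.22 in WT arrays, so IIKO array 1 was alone at the top and the groups overlapped. The difference was 0.31 ± 0.15 (SE; limma adjusted p = 0.311). Lipa, the acid lipase that frees cholesterol from its esters, lay between 9.01 and 9.24 in WT and between 9.03 and 9.34 in IIKO arrays. It acts just before NPC2 and NPC1 in the same route. Psap, the precursor of the saposins, and Smpd1, acid sphingomyelinase, differed by 0.01 and 0.02, signs that turned after a second quantile normalization.

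Neither transcription factor of the pathway passed, and the interval was narrower for Tfeb than for Tfe3. Tfeb lay between 6.82 and 6.92 in WT and between 6.84 and 6.93 in IIKO arrays, with a difference of 0.0032 (-0.11 to 0.12). Tfe3 lay between 7.04 and 7.55 and between 7.20 and 7.56, with a difference of 0.03 (-0.22 to 0.28). These factors are regulated by moving into the nucleus, which RNA levels do not show. Among the 29 tested genes with a promoter sequence, the 10 with the core CACGTG had a median difference of 0.05 and the 19 without it 0.03. For the longer GTCACGTG the medians were 0.07 over 7 genes and 0.03 over 22, and 0 of the 29 passed.

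The V-ATPase genes also showed 0 of 5 past the test. Atp6v0d1, a subunit of the membrane sector, had the widest spread, from 8.50 to 8.96 in WT and from 8.46 to 8.98 in IIKO arrays, and differed by -0.12 (-0.40 to 0.17). Atp6v1a and Atp6v1h, of the cytosolic sector that hydrolyses ATP, differed by 0.01 and 0.03. Atp6ap1 and Atp6ap2, accessory proteins of the pump, differed by 0.03 and 0.10. The signs of Atp6v1a, Atp6v1h and Atp6ap1 turned after a second quantile normalization.

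**Figure D3:**
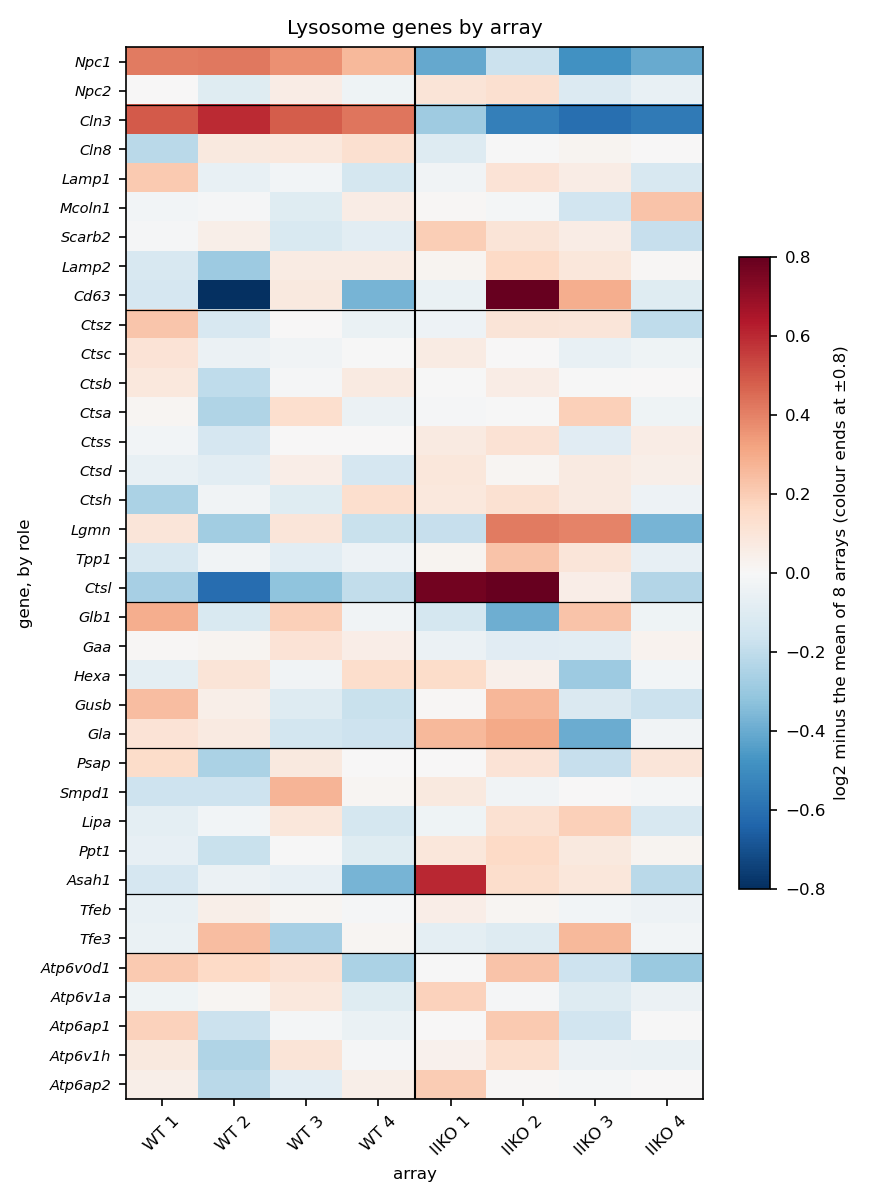
Each gene's log2 level in each of the 8 arrays minus its mean over all arrays (colour), with genes in rows by role and arrays in columns, WT left of the line. Npc1 and Cln3 split by group, and Ctsl is highest in IIKO arrays 1 and 2. Cd63 is lowest in WT array 2 (level 5.63) and highest in IIKO array 2 (level 7.79). The colour scale is cut at both ends, so the full span of Cd63 is not shown.

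Across arrays the 34 genes did not share a single pattern, but 2 arrays stood out. IIKO array 2 was the highest of all 8 arrays for 13 of the 34 genes, and WT array 2 the lowest for 11. The same counts were not made over all genes. The mean of the 34 was 8.93 in IIKO array 2 and 8.68 in WT array 2, and 8.73 to 8.86 in the other arrays. The median of the brighter 9969 genes was also highest in IIKO array 2, at 8.59, while it was 8.53 in WT array 2 and lowest, at 8.48, in WT array 4. Its part in the order of the arrays was not tested. Without IIKO array 2, 19 of the 34 differences were above zero, and 0 of the 34 passed whichever array was left out.

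Of the 104 other lysosome genes measured (114 were listed), 2 passed, 1 higher and 1 lower, against 0.286% of all genes. Without adjustment (p under 0.05), 9 were higher and 9 lower, together 17.3% of the 104, against 17.3% of all genes. Each direction held 8.65% of the 104, against 5.27% of all genes higher and 12.0% lower. Of the 104, 89 belong to the brighter 9969 genes, where the shares were 8.95% higher and 7.42% lower. The groups were apart with IIKO higher for 2 of the 104 (2.83% of all genes) and with IIKO lower for 7 (7.69%). Among the brighter 9969 genes they were apart for 493 with IIKO higher and for 448 with IIKO lower. Differences were above zero for 55 and below for 49, a balance of 47 to 57 after a second quantile normalization and 73 to 31 with arrays centred on their medians. The list's median difference was 0.0084.

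Mcoln2 rose in the IIKO arrays. It encodes TRPML2, a channel of endosomes and lysosomes related to the product of Mcoln1 and found mainly in lymphoid and myeloid cells. It read 6.86, 6.99, 7.06 and 7.10 in WT arrays and 7.67, 7.68, 7.37 and 7.85 in IIKO arrays, groups that were apart. The difference was 0.64 ± 0.10 (SE), a level 1.56-fold higher (limma adjusted p = 0.0315). The call rested on all arrays together: it was lost when any array except IIKO array 3 was left out (adjusted p from 0.0556 to 0.105). Mcoln1 and Mcoln3, the other members of the family (Mcoln3 named with its value in view), differed by 0.03 and 0.07 and did not pass.

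Gnptg fell in the IIKO arrays. It encodes a subunit of the enzyme that puts the mannose 6-phosphate tag on lysosomal hydrolases. It read 9.16, 8.95, 9.15 and 8.85 in WT arrays and 8.60, 8.63, 8.46 and 8.54 in IIKO arrays, and the groups were apart. The difference was -0.47 ± 0.08 (SE), a level 1.39-fold lower (limma adjusted p = 0.0475). The call was lost when any array except WT array 4 was left out (0.0837 to 0.131), with arrays centred on their medians (0.0788) and with a trend and robust variance (0.0564).

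The promoters of these genes, shown because these are the genes of the longer list that passed, held the same core. They were chosen with their values known. The core stood in 21 of 84 other lysosome genes with a promoter sequence (25%), among them Igf2r, Naglu, Vps16 and Rragb, which did not pass. The matches of Mcoln2 and Gnptg lie before inner starts (GRCm38.p6).
Mcoln2, chr3:146150090-146150119, plus strand: tccctgagctcaCACGTGgaccccattctg
Gnptg, chr17:25240119-25240148, minus strand: cggctgtcactCACGTGACcgtgagaccct

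The other genes of delivery and tethering did not pass (16 of 17 measured). Igf2r, the receptor that recognises the mannose 6-phosphate tag, lies on chromosome 17 like Gnptg and came nearest. Of the 20 nearest tested genes of Gnptg, 0 passed. The remaining genes of the longer list on that chromosome differed by -0.02 (Atp6v0e) to 0.19 (Ppt2). Igf2r read 9.43, 9.44, 9.41 and 9.41 in WT arrays and 9.10, 9.003, 9.18 and 9.23 in IIKO arrays. The groups were apart, with a difference of -0.30 ± 0.06 (SE; limma adjusted p = 0.0878). Vps16, of the complexes that tether lysosomes to their partners, differed by 0.21 (adjusted p = 0.219). Gnptab, which encodes the catalytic part of the tagging enzyme and was likewise named with its value in view, differed by 0.11 with an adjusted p of 0.442.

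Among the other soluble hydrolases 0 of 29 passed. The lowest adjusted p values were those of Ctsw, a cathepsin of cytotoxic lymphocytes (-0.43 ± 0.10, SE; 0.131), Idua, alpha-iduronidase (-0.31 ± 0.08; 0.160), and Naglu, which degrades heparan sulfate (-0.19 ± 0.06; 0.170). All 3 had their IIKO arrays below their WT arrays, as did 7.69% of all genes. Among membrane proteins and transporters 27 of 28 did not pass, with Sidt2 (0.19, adjusted p = 0.201) and Ctns, the cystine exporter (-0.18, 0.260), next after Mcoln2. Among further V-ATPase subunits 0 of 16 passed, led by Rnasek (-0.18, 0.209), Atp6v1f (-0.18, 0.250) and Atp6v0d2 (0.58, 0.287). Mitf, Tfec, the Ragulator subunits, the Rag GTPases and their folliculin partners gave 0 of 14, also at an unadjusted p under 0.05, led by Tfec (0.24, 0.351), Lamtor3 (-0.12, 0.366) and Rragb (0.24, 0.380).

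**Figure D4:**
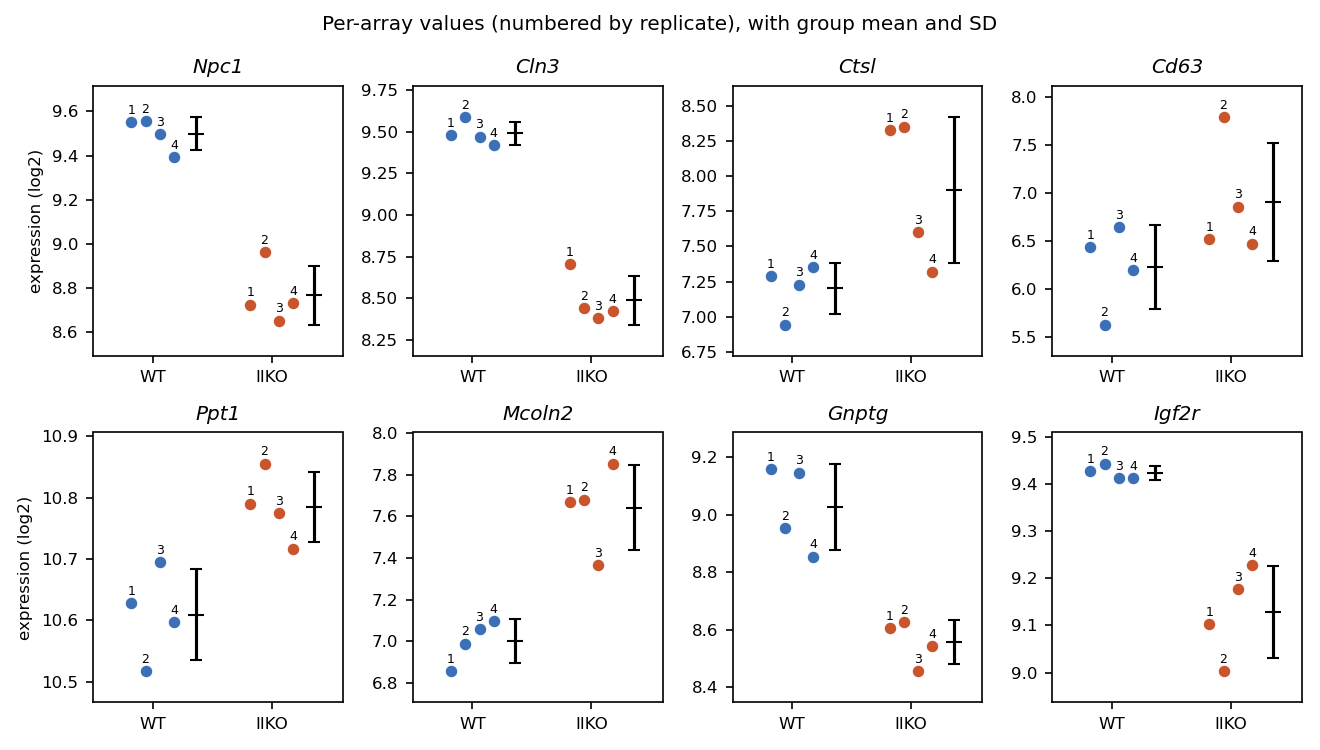
Expression (log2, vertical axis) of 8 lysosome genes in each of the 4 WT and 4 IIKO arrays, numbered by replicate, with the mean and SD of each group at the right of its points. Npc1, Cln3, Ppt1, Mcoln2, Gnptg and Igf2r have groups that do not overlap, and those of Ctsl and Cd63 do.

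Among the genes nearest in the genome, 2 passed the test near Cln3 and 0 near Npc1. Cln3 lies on chromosome 7, and the 2 were among the 20 nearest tested genes, where 0.286% of all genes passed. Its next neighbour Apobr, which encodes a receptor for lipoproteins that carry apolipoprotein B48, was lower, from 8.05 to 7.49 (-0.56 ± 0.08, SE; limma adjusted p = 0.0144). That call was lost without WT array 1 (0.0602), IIKO array 1 (0.0518) or IIKO array 3 (0.0572). Gdpd3, 9 tested genes away, was higher by 6.11. The genes on the other side of Cln3, from Eif3c to Sbk1, did not pass.

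For Npc1, on chromosome 18, 0 of the 20 nearest tested genes passed. Its next neighbour Rmc1, whose product belongs to a complex that matures late endosomes, had a mean of 9.28 in WT and 8.92 in IIKO arrays (-0.36, 95% confidence interval -0.55 to -0.17, limma adjusted p = 0.141). Riok3, next after it, differed by 0.30 (0.18 to 0.43, adjusted p = 0.0671). Both names were picked with their values in view.

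Of the other members on chromosome 7 (Ctsc, Ctsd, Tpp1 and Smpd1), Tpp1 had 3 neighbours past the test within 5 tested genes. These were the gene models Gm1966 (-2.18), Gm4759 (-2.15) and Gm8995 (0.36), between 3 and 5 tested genes away, while Tpp1 itself differed by 0.14 (-0.01 to 0.29) without passing. Smpd1, Ctsc and Ctsd had 0 such neighbours and differed by 0.02, -0.01 and 0.11. Elsewhere Ctsh on chromosome 9 had 1, the gene model Gm24463 (0.45), and no other gene of the 34 had any, Tfeb on chromosome 17 included. The calls of Gm1966 and Gm4759 held whichever array was left out, and that of Gm8995 was lost when any array except WT array 4 was left out (limma adjusted p from 0.0760 to 0.1003) and after a second quantile normalization (0.0615). That of Gm24463 was lost whichever array was left out (0.0560 to 0.0879).

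**Figure D5:**
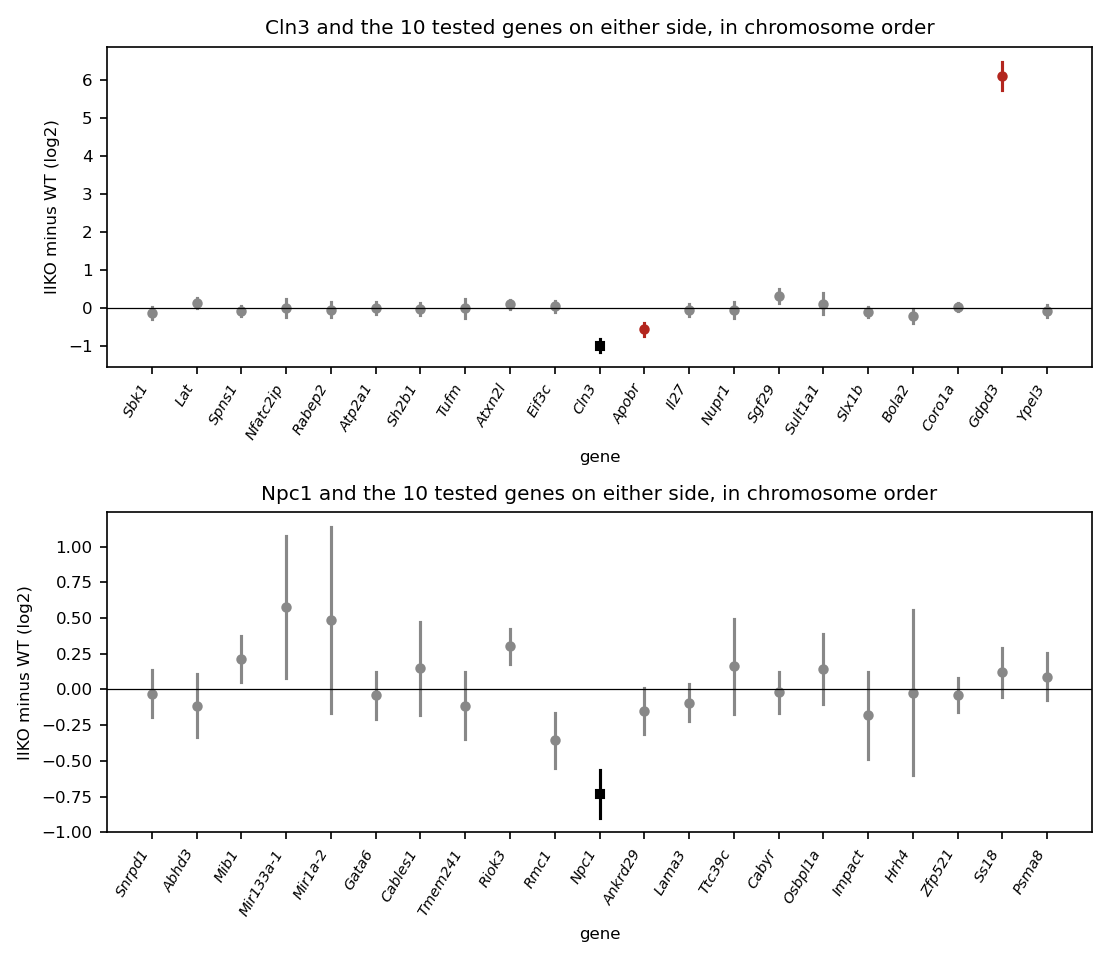
Difference (log2, vertical axis) with 95% confidence interval of Cln3 and of Npc1 (black squares) and of the 10 tested genes on either side of each in chromosome order (circles, red where past the test). Apobr at -0.56 and Gdpd3 at 6.11 are red near Cln3, and no gene is red near Npc1.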

How the data were processed

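The authors deposited log2 values per probe set. The submitters' processing notes name affy and RMA, which corrects background and brings arrays to common quantiles. Versions were not given in the sources used here. Scanner data were not used. Of 34760 probe sets, 21640 had 1 symbol in the platform annotation, and the brightest probe set per gene by its mean over all 8 arrays was kept (19937 genes).

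The titles gave the groups. The fit used lmFit and eBayes of limma 3.58.1 (R 4.3.3), IIKO minus WT, two-sided. P-values were adjusted by Benjamini-Hochberg over the 19937 genes, and the fit was tested on simulated data. All 36 genes of the set are named, with per-array values for Npc1, Cln3 and those at an unadjusted p under 0.05 or with groups apart. Of each further list, the text names genes past the test and the 3 with the smallest p, the 2 brightest markers, and neighbours past the test among 10 tested genes on either side, in the order of GRCm38.p6. The members and lists were chosen with earlier results of these data known. The 2 cases of an older symbol, Pgcp and Tmem55b, were found as Cpq and Pip4p1.

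The alternatives tried were a block for the replicate number, a threshold of 0.01, a second quantile normalization, arrays centred on their medians, the brighter 9969 genes alone, eBayes with trend and robust settings, weights for arrays, the mean over probe sets and leaving out each array. The number of arrays limits the precision. Figures were drawn with matplotlib 3.10.9 in Python 3.11.15.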

Additional observations from a re-analysis of the deposited data

Results flagged for a closer look

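In 6 of 108 groups of 4 arrays, 1 array stood far from the other 3 by Dixon's criterion, where chance gives about 1 in 20. Cln8 was lowest in WT array 1, at 7.28 against 7.57 to 7.62. Ctsa was highest in IIKO array 3, at 9.69 against 9.47 to 9.50. Ctsb was highest in IIKO array 2, at 10.07 against 10.01 to 10.02. Atp6ap2 was highest in IIKO array 1, at 8.51 against 8.30 to 8.32. Of the other lysosome genes, Sidt2 was highest in IIKO array 2, at 10.44 against 10.31 to 10.32, and Rragb was lowest in WT array 2, at 7.07 against 7.36 to 7.41.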

How the results depend on the processing

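The count of 0 among the 34 genes held under every alternative run, and the lowest adjusted p among them ran from 0.0895 to 0.358. The threshold, block, brighter-gene, variance and probe-set settings leave the differences of these genes as they are. Under the other 11 settings, 326 of 374 values kept their direction and 48 turned, in 17 genes. The count of 2 among the other lysosome genes was 0 at a threshold of 0.01 and with the replicate number as a block, 1 with arrays centred on their medians and with trend and robust variance, and 0 to 1 with 1 array left out. The count of 57 over all genes was 21 at 0.01, 31 with the replicate block and 32 to 50 with 1 array left out. The block also ended the calls of Mcoln2 (adjusted p 0.0753), Gnptg (0.127), Apobr (0.0770), Gm8995 (0.0952) and Gm24463 (0.0975). Arrays with the same replicate number share little: the correlations of their deviations from the group means were 0.04, -0.01, -0.07 and 0.22, so the numbers were not taken as pairs. The median difference of the 34 was 0.012 after a second quantile normalization and 0.083 with centred arrays, and 0.017 to 0.065 with 1 array left out.

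Centring the arrays adds the same 0.05 to every gene, by which Cln8 turned to 0.012, Ctsc to 0.038, Ctsz to 0.028 and Gusb to 0.045, and with array weights Gusb turned to 0.013. After a second quantile normalization Lamp1 turned to -0.043, Ctsb to -0.010, Psap to -0.026, Smpd1 to -0.011, Mcoln1 to -0.016, Atp6v1a to -0.029, Atp6v1h to -0.015 and Atp6ap1 to -0.019. With 1 array left out the difference of Npc2 ran from -0.0059 to 0.073, Lamp1 from -0.039 to 0.077, Ctsb from -0.033 to 0.063, Ctsc from -0.037 to 0.022, Ctsz from -0.069 to 0.047, Hexa from -0.126 to 0.021, Gla from -0.020 to 0.213, Gusb from -0.095 to 0.076, Psap from -0.070 to 0.076 and Smpd1 from -0.030 to 0.114. Likewise Mcoln1 ran from -0.037 to 0.090, Tfeb from -0.016 to 0.019, Tfe3 from -0.056 to 0.115, Atp6v1a from -0.045 to 0.051, Atp6v1h from -0.039 to 0.075 and Atp6ap1 from -0.039 to 0.094. Leaving out an array changes the samples averaged, and the cause of the other turns was not tested. The fit on the brighter genes held 30 of the 34.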

Other observations

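Inhibitors of cathepsins and related proteases did not differ past the test. Of 6 genes, 0 passed limma's test, also at an unadjusted p under 0.05. Cstb, which encodes cystatin B, had a mean of 9.78 in WT and 9.60 in IIKO arrays (-0.18 ± 0.09, SE; adjusted p = 0.312). Serpinb9, the inhibitor of granzyme B, differed by 0.15 (0.405) and Serpinb1a by 0.19 (0.557). Cst3, Cst7 and Serpinb6a differed by 0.07, -0.05 and 0.03.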
